A study of Rattus norvegicus with 12 samples.

Results

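Congestive heart failure (CHF) was compared with sham surgery over all 12 rat lungs of the study, 6 CHF lungs against 6 sham lungs, as the mean of CHF minus sham with placebo and CHF minus sham with ketotifen. The result described here is the set of genes that moved the same way in both arms. Of 31042 probe sets that were not controls, 16536 had a log2 value of at least 4 in at least 3 arrays and were tested. On average 3467 of them were called, and 1548 of these were shared, meaning that the 3 CHF values and the 3 sham values did not overlap in either arm, on the same side. The shared probe sets gave 1050 genes, 617 higher and 433 lower in CHF, counting for each gene the brightest probe set with 1 symbol.

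Male Sprague-Dawley rats weighing 91 ± 9 g underwent supracoronary aortic banding, in which a clip narrows the aorta above the coronary arteries, or a sham operation without the clip. Per the design text the banded rats had failure of the left heart, its ejection fraction still preserved, and pulmonary hypertension as a consequence when whole lungs were taken 9 weeks later. The groups were sham with placebo, CHF with placebo, sham with ketotifen and CHF with ketotifen, 3 lungs each, with 1 Affymetrix rat array per lung. Ketotifen, which blocks histamine receptors and keeps mast cells from releasing their granules, was given at 1 mg per kg body weight per day in drinking water. For the arm without it the labels say placebo, while the design text speaks of no treatment. The design text speaks of separate rats for the arrays, so the spread between arrays includes that between animals, and the number of arrays limits the precision. No measured gene marks the clip itself, so the surgery labels could not be checked from expression.

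When the left heart fails, pressure backs up through the pulmonary veins into the lung capillaries. Fluid and red cells can then pass into the air spaces, where alveolar macrophages take up the cells and break down their heme, and macrophages filled with iron are known as heart failure cells. Mast cells, which store chymase, tryptase and carboxypeptidase in their granules, are known to gather around vessels and airways in lungs with chronic congestion, and the lung vessels thicken.

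All values below are log2 GCRMA values, in which 1 unit is a doubling of signal. A difference is the average of CHF minus sham over both arms with its standard error (SE) from limma, n = 6 against 6, and each adjusted p is that of limma after Benjamini-Hochberg adjustment over the 16536 probe sets; a gene is said to have risen or fallen where it was under 0.05. Values below about 4 lie near the array's background, where GCRMA flattens signals, so a difference from such a level has an uncertain size. In RNA from whole lung, fewer cells of a type and less RNA per cell cannot be told apart.

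The arrays held lung. Sftpc, the surfactant protein C of alveolar type 2 cells, read from 15.40 to 15.93 in the 12 lungs, and Ager, the receptor that marks alveolar type 1 cells, from 11.30 to 13.46. Several lungs stood apart in ways that bear on what follows. The mean over 11 cardiomyocyte genes was 7.87 in sham placebo lung 3, 6.28 in sham ketotifen lung 1 and 9.14 in sham ketotifen lung 2, and 3.37 to 4.07 in the other 9 lungs, so cardiomyocyte genes were raised in 3 sham lungs and in no CHF lung; 0 of the 11 genes were called (median difference -1.95), and 7 of the 11 passed the filter through sham lungs. The mean over 17 genes of ciliated cells was 9.08 and 8.09 in sham placebo lungs 2 and 3, against 6.10 in sham placebo lung 1. The gap between the 3' and 5' beta-actin control probe sets, which widens when RNA is degraded, was largest in sham ketotifen lung 2 at 4.52, sham placebo lung 2 at 4.23 and sham placebo lung 3 at 3.90, and lay between 2.90 and 3.45 in the others. CHF placebo lung 1 lay nearer to the CHF ketotifen lungs than to CHF placebo lungs 2 and 3 in the means over the macrophage, cell cycle and endothelial lists. Most gene lists below are therefore also given without sham placebo lungs 2 and 3 and without the 3 lungs with raised cardiomyocyte genes. These fits rest on 10 and 9 lungs and take a lone remaining lung to vary like the other groups. The smooth muscle, alveolar type 2, T and NK cell and coagulation lists are given with all lungs only. For RNA quality most lists are also given with the beta-actin gap as a covariate, over all 12 lungs, and without the 3 lungs of largest gap. Fewer lungs by themselves leave fewer calls, so the list's median difference is given beside the count, except for the glucocorticoid list. A gene that reached 4 in fewer than 3 sham lungs needed CHF lungs to pass the filter. It is said below to have passed through CHF lungs, and the converse holds for sham lungs. Passing in this way favours a difference without forcing one. Where this touches a list's count, the count without such genes is given for most lists.

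**Figure D1:**
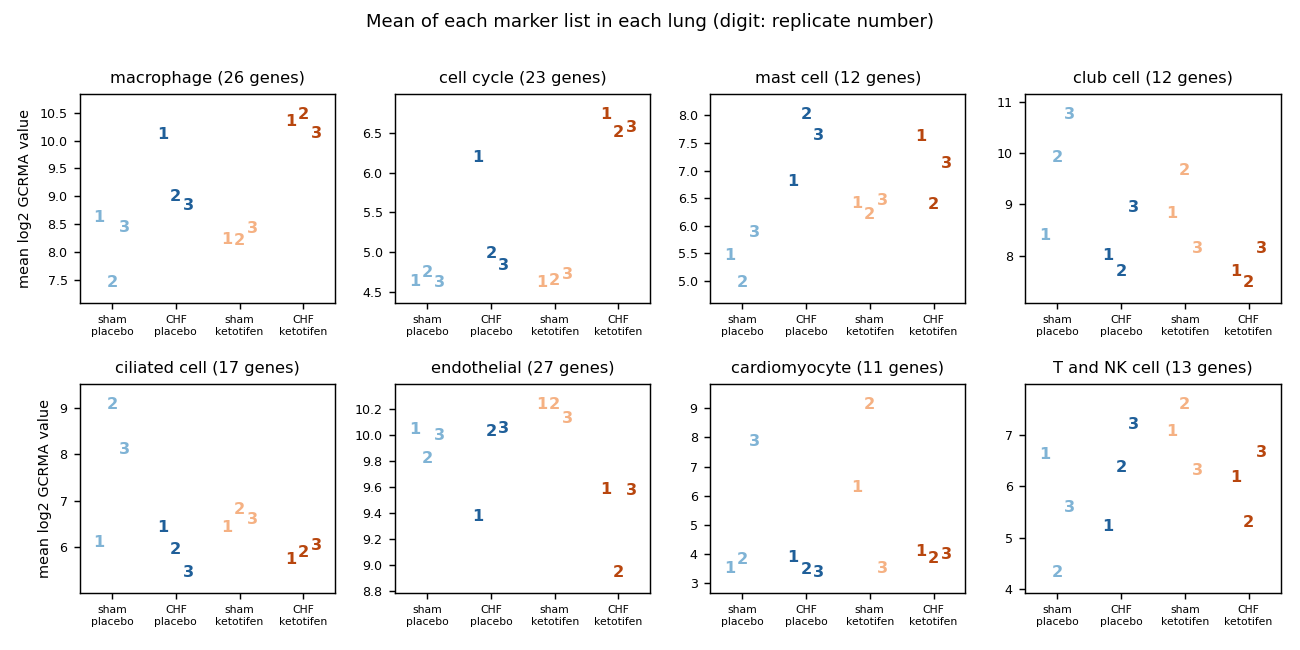
Mean log2 GCRMA value of 8 marker lists (vertical axes) in each of the 12 lungs, by group (horizontal axes); each digit is 1 lung and gives its replicate number. The cardiomyocyte mean is high in sham placebo lung 3 and sham ketotifen lungs 1 and 2, and the ciliated cell mean in sham placebo lungs 2 and 3, while the macrophage mean is 8.84 or more in every CHF lung and 8.62 or less in every sham lung.

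Of the 16536 probe sets tested, 1827 (11.0%) rose and 1640 (9.92%) fell, and 6224 had an unadjusted p under 0.05. The median difference over all tested probe sets was -0.02. Shared probe sets numbered 896 higher (5.42%) and 652 lower (3.94%). The shared counts of all gene lists below are to be read against these shares. The arms contributed unequally to the test: 24 probe sets rose and 4 fell in the placebo arm alone (0.169% in all), whereas 1052 rose and 1093 fell in the ketotifen arm alone (13.0%). Only 11 probe sets were called in both arms taken separately. The difference between the arms was itself called for 61 probe sets (0.369%). Among the 3467 called on average, 3404 had the same sign in both arms (98.18%, against 70.24% of all tested). Opposite signs were seen for 63, and 51 had a called difference between the arms. A call on the average of the arms favours probe sets whose arms agree. The 98.18% is therefore no support for a shared effect. Fits with fewer lungs kept the sign of all 3467 and called far fewer: 297 without sham placebo lungs 2 and 3 and 60 without the 3 lungs with raised cardiomyocyte genes, of which 34 shared higher and 8 shared lower. Of single lungs, sham placebo lung 3 and CHF placebo lung 1 mattered most, with 2021 and 2123 probe sets called without them. All fits with fewer lungs reused lungs that made the calls, so the kept sign is no separate support.

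No array serves in both arms, so one arm can be read against the other. Of the 1052 probe sets that rose in the ketotifen arm, 960 (91.3%) were also higher in CHF in the placebo arm, where 51.8% of all tested probe sets were higher. Their median difference was 1.14 in the ketotifen arm, which chose them, and 0.47 in the placebo arm. Of the 1093 that fell in the ketotifen arm, 918 (84.0%) were lower in the placebo arm, against 48.2% of all tested, with medians of -0.97 and -0.30. In the other direction, 22 of the 24 probe sets that rose in the placebo arm were higher in the ketotifen arm and 2 of the 4 that fell were lower there, with medians of 2.87 and -1.56 in the placebo arm, which chose them, and 1.04 and -0.10 in the ketotifen arm. Choosing probe sets in one arm makes the other arm's median smaller by construction, so these medians do not compare the size of the arms. Across all tested probe sets the arm differences correlated with a Pearson r of 0.54, a description over probe sets that share lungs and normalization.

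**Figure D2:**
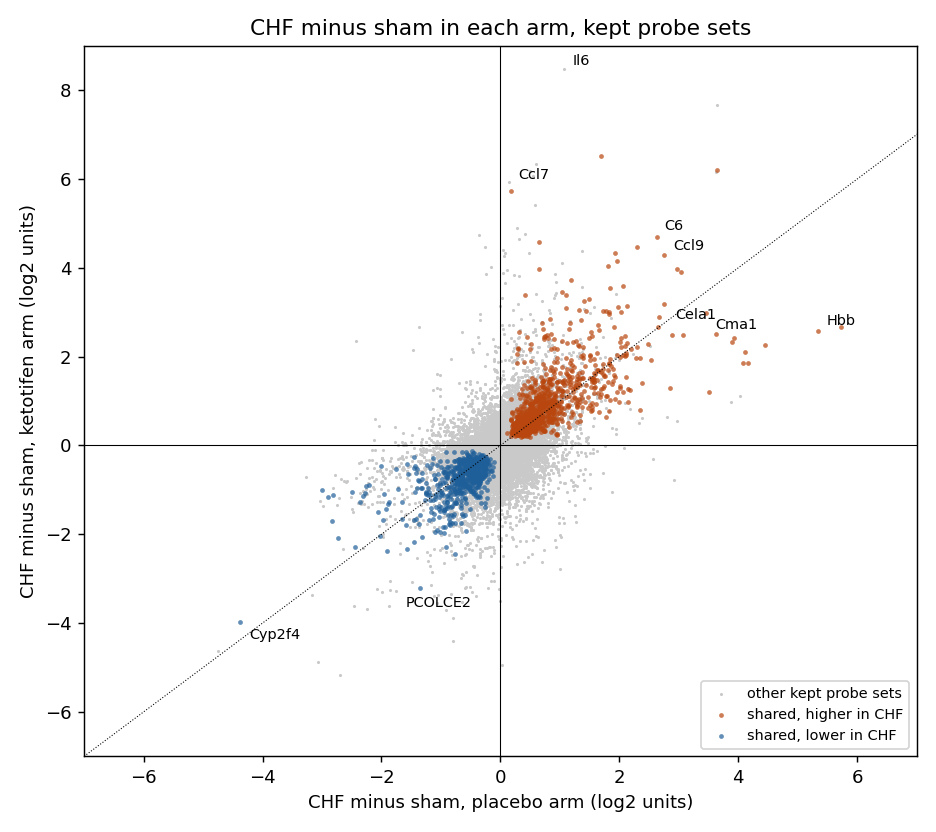
CHF minus sham in the placebo arm (horizontal axis) against CHF minus sham in the ketotifen arm (vertical axis), in log2 units, for the 16536 probe sets tested; 896 shared higher probe sets are orange, 652 shared lower ones blue and all others grey, and the dotted line marks equal differences. Hbb lies to the right at 5.34 and 2.59, Cyp2f4 at the lower left at -4.38 and -3.99, and Il6 and Ccl7 lie high above the line, with large differences in the ketotifen arm only.

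Among the 617 shared higher genes the median difference was 0.66 with placebo and 0.80 with ketotifen; 135 reached at least 1 in both arms and 23 at least 2. For 63 of them the sham placebo mean was under 4, so that they passed the filter through other lungs and their size is uncertain. Among the 433 shared lower genes the medians were -0.55 and -0.62, with 39 at 1 or more below sham in both arms and 4 at 2 or more. A called difference between the arms was present for 4 of the higher and 0 of the lower genes (0.369% of all tested probe sets). Its unadjusted p by limma was under 0.05 for 54 of the 617 higher and 26 of the 433 lower genes. Among all 16536 tested probe sets this held for 1778. Where a shared gene had dimmer probe sets that were tested too, 98 of 115 for higher genes and 180 of 216 for lower genes pointed the same way, against 69.2% of 3240 dimmer probe sets over all genes, and 1 and 2 were called in the opposite direction. The genes with the largest difference in their weaker arm were, from the top, Cma1, Cxcr1, Cela1, Ccl9, Arg1, C6, Hbb, Mcpt1l1, Alas2, Olr1, Arl11, Hba-a3, Socs3, Cndp1 and Bcl2a1 among the higher and Cyp2f4, Lypd2, Cyp2s1, Cytl1, Ccdc65, Cfap144, Six4, Klhdc7a, Rabl2, Plagl1, Aldh1a1, PCOLCE2, Atp2c2, Cdkl4 and Fam107a among the lower. They are described below with the groups they belong to. Of these genes Cxcr1, C6, Alas2 and Socs3 passed the filter through CHF lungs, and Lypd2, Ccdc65 and Atp2c2 through sham lungs. Passing in this way favours a difference, so the calls of these genes are no support for a change. Next in order came Hmox1 (weaker arm 2.06) after Bcl2a1 (2.08), and Gpr155 (1.26) after Fam107a (1.31).

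Genes of mast cell granule proteases rose, with Cma1 first and Mcpt1l1 eighth in the order by weaker arm. Of 17 list genes on the array 12 passed the filter, and 8 rose (11.0% of all tested). Without overlap in either arm were 5 of them: Cma1, Mcpt1l1, Fcer1a, Mcpt1 and Tpsab1. Tpsab1 passed through CHF lungs, and of the other 11 genes 7 rose. Cma1, the chymase that can form angiotensin II, read 3.31, 2.53 and 4.36 in the sham placebo lungs, 6.18, 7.40 and 7.0 in the CHF placebo lungs, 4.25, 4.35 and 4.84 in the sham ketotifen lungs and 8.15, 6.78 and 7.46 in the CHF ketotifen lungs. All 6 CHF lungs lay above all 6 sham lungs. The difference was 3.22 ± 0.34, a 9.33-fold increase (adjusted p = 0.00103), with 3.46 in the placebo arm and 2.99 in the ketotifen arm. Mcpt1l1, a chymase-like mast cell protease, read with placebo 4.22, 3.10 and 4.41 in sham and 7.55, 7.96 and 7.12 in CHF lungs, and with ketotifen 5.59, 4.64 and 5.65 in sham and 8.75, 6.71 and 7.94 in CHF lungs. Again every CHF lung was above every sham lung, and the difference was 3.07 ± 0.36 (adjusted p = 0.00187), 3.63 with placebo and 2.5 with ketotifen. These proteases are close relatives and their probes can share signal.

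Fcer1a, which codes for the IgE-binding chain of the Fc epsilon receptor, read 3.12, 2.65 and 2.68 (sham) and 5.61, 7.03 and 6.33 (CHF) in the placebo arm, and 5.04, 4.49 and 4.48 (sham) and 6.36, 5.38 and 5.90 (CHF) in the ketotifen arm. All CHF lungs were above all sham lungs, but sham ketotifen lungs stood higher than sham placebo lungs, and the difference was 2.35 ± 0.25 (adjusted p = 0.00114), 3.50 with placebo and 1.21 with ketotifen. For Cpa3, the mast cell carboxypeptidase, the values were 2.91, 3.22 and 4.52 in the sham placebo lungs, 6.60, 8.38 and 7.78 in the CHF placebo lungs, 6.27, 5.22 and 6.10 in the sham ketotifen lungs and 8.12, 5.95 and 6.87 in the CHF ketotifen lungs. CHF ketotifen lung 2 fell among the sham ketotifen lungs, so Cpa3 (2.58 ± 0.44, adjusted p = 0.00635) was called on average and was not shared. The same held for Mcpt10 (2.43 ± 0.33, adjusted p = 0.00332) and the tryptase Tpsb2 (1.42 ± 0.31, adjusted p = 0.0127). The remaining shared genes were Mcpt1 (2.07 ± 0.48, adjusted p = 0.016) and the tryptase Tpsab1 (1.57 ± 0.33, adjusted p = 0.0119). Across the 12 genes the median difference was 2.59 with placebo and 0.98 with ketotifen, while the difference between the arms was called for none of them, with adjusted p between 0.117 and 0.943. The other genes of the list did not rise. The transcription factor gene Gata2 (-1.28 ± 0.27, adjusted p = 0.0116) and Hdc, which makes histamine (-0.67 ± 0.20, adjusted p = 0.0354), fell. The receptor Kit (-0.29 ± 0.43, adjusted p = 0.654) and Srgn, the granule proteoglycan serglycin (-0.12 ± 0.20, adjusted p = 0.677), did not pass the test. The call of Hdc was lost in 8 of 12 fits that each left out 1 lung. The list counted 5 higher and 0 lower without sham placebo lungs 2 and 3 and 1 higher, Cma1, without the 3 lungs with raised cardiomyocyte genes, with medians of 1.75 and 1.87 against 1.82 with all lungs. The beta-actin covariate left 5 higher (median 1.74). Leaving out the 3 lungs of largest gap left 3 (1.76).

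Promoters of 2 mast cell genes are shown because they carry a GATA motif close to the start site, AGATAA on either strand, and code for granule enzymes at the head of the list; the promoters shown here and further on were chosen after the values were seen. Each runs from 250 bases before to 50 bases after the gene's start on the gene's own strand, from RefSeq (rat build GRCr8), with motifs in capitals. Cma1 lies at chr15:33390084-33390383 on the minus strand with the motif 64 bases before the start, and Cpa3 at chr2:104673188-104673487 on the minus strand with the motif 55 bases before it.
Cma1: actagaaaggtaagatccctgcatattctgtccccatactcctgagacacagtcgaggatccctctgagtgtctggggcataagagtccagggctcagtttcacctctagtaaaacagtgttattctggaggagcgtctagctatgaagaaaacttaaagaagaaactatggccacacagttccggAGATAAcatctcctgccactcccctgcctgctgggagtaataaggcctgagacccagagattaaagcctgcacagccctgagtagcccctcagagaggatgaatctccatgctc
Cpa3: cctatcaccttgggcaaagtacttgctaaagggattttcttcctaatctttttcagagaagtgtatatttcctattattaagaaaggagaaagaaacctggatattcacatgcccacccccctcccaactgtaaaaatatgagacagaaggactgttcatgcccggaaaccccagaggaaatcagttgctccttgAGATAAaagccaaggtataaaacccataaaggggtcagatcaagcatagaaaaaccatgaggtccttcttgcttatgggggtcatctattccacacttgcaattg
The motif was present in 3 of 11 matched promoters of the tested mast cell genes (27.3%), namely Cma1, Cpa3 and Fcer1a, and in 10.2% of 21851 promoters of protein-coding genes. The 3 are among 7 matched genes that rose (42.9%). A match gives letters only and shows no binding.

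Red cell genes and genes of heme breakdown rose. Hbb, the beta chain of hemoglobin, read with placebo 7.66, 7.99 and 9.64 in sham and 12.36, 14.01 and 14.95 in CHF lungs, and with ketotifen 10.99, 9.67 and 10.16 in sham and 12.96, 12.75 and 12.89 in CHF lungs. All CHF lungs lay above all sham lungs, with the smallest gap in the ketotifen arm, and Hbb differed by 3.97 ± 0.45, or 15.6-fold (adjusted p = 0.00171). Its difference was 5.34 with placebo and 2.59 with ketotifen, and the gap between the arms was not called (adjusted p = 0.305). Hba-a3, an alpha globin gene whose probes can read related globins, differed by 3.35 ± 0.61 (adjusted p = 0.00722) and did not overlap between CHF and sham lungs in either arm. Alas2, the first enzyme of heme synthesis in red cell precursors, read 2.72, 3.35 and 2.96 (sham) and 4.08, 7.23 and 9.40 (CHF) in the placebo arm, and 3.43, 2.74 and 2.94 (sham) and 5.64, 4.99 and 5.47 (CHF) in the ketotifen arm. Sham lungs were all at background, and CHF placebo lungs ranged widely, with lung 3 highest and lung 1 lowest; the difference was 3.11 ± 0.68 (adjusted p = 0.0132). Bpgm, an enzyme of red cells that makes bisphosphoglycerate, which lowers the oxygen affinity of hemoglobin, differed by 0.68 ± 0.14 (adjusted p = 0.00989). With Hbb and Alas2 it makes 3 of the 5 red cell genes that passed the filter of 9 on the array, all 3 shared, and the other 2, Fech (0.37 ± 0.16, adjusted p = 0.115) and Tfrc (0.19 ± 0.15, adjusted p = 0.375), did not pass the test. Alas2 passed the filter through CHF lungs, which leaves 2 of 4 genes that rose (11.0% of all tested). The 3 calls held in each fit without 1 lung and with the beta-actin covariate (list median 0.82). The count was 1 without sham placebo lungs 2 and 3, without the 3 lungs with raised cardiomyocyte genes and without the 3 lungs of largest gap, with medians of 0.66, 0.70 and 0.69 against 0.68.

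Hmox1, which opens the heme ring, read 7.18, 6.04 and 6.94 in the sham placebo lungs, 10.25, 8.27 and 7.83 in the CHF placebo lungs, 6.04, 7.01 and 7.46 in the sham ketotifen lungs and 10.57, 10.75 and 9.97 in the CHF ketotifen lungs. CHF exceeded sham without overlap in either arm, and Hmox1 differed by 2.83 ± 0.41, 7.12-fold (adjusted p = 0.00366). Of 16 tested genes of iron and heme handling, 5 rose (11.0% of all tested) and 0 fell. Besides Hmox1 these were the biliverdin reductases, Blvra (1.51 ± 0.29, adjusted p = 0.00813) and Blvrb (0.66 ± 0.17, adjusted p = 0.0253), the iron exporter ferroportin Slc40a1 (1.23 ± 0.23, adjusted p = 0.00803) and the siderophore-binding Lcn2 (2.37 ± 0.59, adjusted p = 0.0202). The call of Blvrb was lost without sham placebo lung 3, sham ketotifen lung 3 or CHF ketotifen lung 2. Hmox1 and both reductases were shared, so RNA of these enzymes of heme breakdown was higher in CHF in both arms. Enzyme activity was not measured. CHF placebo lung 3 overlapped with sham lungs for Slc40a1 and Lcn2. Of 2 dimmer probe sets of Slc40a1, 1 also rose (1.29) and 1 near background did not pass the test (0.64). Without sham placebo lung 1, 8 genes of the list rose. The list counted 1 higher without sham placebo lungs 2 and 3 and 0 without the 3 lungs with raised cardiomyocyte genes, with medians of 0.56 and 0.56 against 0.70. It counted 3 with the beta-actin covariate (median 0.48) and 0 without the 3 lungs of largest gap (0.45).

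Macrophage genes rose as a group. All 26 list genes on the array passed the filter, 21 rose (11.0% of all tested probe sets rose) and 0 fell, and 13 were shared; the median difference was 1.39, with 0.96 under placebo and 1.83 under ketotifen. Cd163 and Trem2 passed through CHF lungs, and of the other 24 genes 20 rose. Itgax, the integrin CD11c of alveolar macrophages and dendritic cells, read with placebo 6.01, 4.61 and 5.25 in sham and 8.25, 6.88 and 7.60 in CHF lungs, and with ketotifen 6.44, 6.81 and 7.08 in sham and 8.96, 8.99 and 8.27 in CHF lungs. CHF lungs lay above sham lungs in both arms, and Itgax differed by 2.13 ± 0.28 (adjusted p = 0.00304). Cd68, a lysosomal glycoprotein of macrophages, read 8.32, 5.19 and 6.67 (sham) and 10.32, 8.40 and 8.49 (CHF) in the placebo arm, and 8.15, 7.70 and 8.10 (sham) and 9.87, 10.45 and 9.52 (CHF) in the ketotifen arm. Sham placebo lung 2 was the lowest by far, and CHF placebo lungs 2 and 3 lay just above the highest sham lung; Cd68 differed by 2.15 ± 0.49 (adjusted p = 0.0154), and by 1.36 without sham placebo lungs 2 and 3. Gpnmb, a glycoprotein of lipid-laden macrophages, differed by 2.06 ± 0.41 (adjusted p = 0.00966), almost equally with placebo (2.07) and ketotifen (2.05). Adgre1, an adhesion receptor of macrophages, differed by 1.35 ± 0.21 (adjusted p = 0.00423), with 1.32 and 1.39. Other shared members were Apoe (1.08 ± 0.14), which carries lipid, Lgals3 (1.35 ± 0.19), a lectin of activated macrophages, Fabp5 (2.00 ± 0.33), which binds fatty acids, and C1qa (1.69 ± 0.24), which starts the classical complement cascade, with adjusted p of 0.00293, 0.00342, 0.00588 and 0.00343.

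Trem2, a lipid receptor of macrophages, read 2.63, 2.79 and 2.62 in the sham placebo lungs, 6.39, 4.50 and 2.96 in the CHF placebo lungs, 2.79, 2.64 and 2.48 in the sham ketotifen lungs and 6.35, 8.30 and 6.30 in the CHF ketotifen lungs. The 6 sham lungs were at background, and CHF placebo lung 3 was barely above them, so that its increase (3.14 ± 0.52, adjusted p = 0.00572) was shared but of uncertain size. Spp1, the secreted phosphoprotein osteopontin, had the largest average difference of the list, 5.66 ± 0.96 (adjusted p = 0.00617), yet read with placebo 6.52, 2.43 and 5.42 in sham and 11.14, 8.16 and 6.01 in CHF lungs, and with ketotifen 2.07, 2.75 and 5.45 in sham and 11.46, 11.70 and 10.14 in CHF lungs. CHF placebo lung 3 overlapped with sham placebo lungs, so Spp1 was not shared. The macrophage count was 20 to 22 in the 12 fits that each left out 1 lung. It was 5 without sham placebo lungs 2 and 3 and 2 without the 3 lungs with raised cardiomyocyte genes, with medians of 1.20 and 1.55. It was 11 with the beta-actin covariate (median 1.20). It was 2 without the 3 lungs of largest gap (1.24).

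The promoters of Cd68 and Itgax are shown because each holds the AP-1 motif TGACTCA, written TGAGTCA on the other strand. Cd68 lies at chr10:54882392-54882691 on the minus strand with the motif 205 and 80 bases before the start, and Itgax at chr1:192149799-192150098 on the plus strand with the motif 56 bases before it.
Cd68: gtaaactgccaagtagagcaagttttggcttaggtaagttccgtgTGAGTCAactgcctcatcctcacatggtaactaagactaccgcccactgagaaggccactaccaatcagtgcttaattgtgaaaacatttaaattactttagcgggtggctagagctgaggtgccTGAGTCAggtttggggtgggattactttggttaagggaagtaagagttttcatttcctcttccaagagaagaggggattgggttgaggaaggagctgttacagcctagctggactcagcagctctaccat
Itgax: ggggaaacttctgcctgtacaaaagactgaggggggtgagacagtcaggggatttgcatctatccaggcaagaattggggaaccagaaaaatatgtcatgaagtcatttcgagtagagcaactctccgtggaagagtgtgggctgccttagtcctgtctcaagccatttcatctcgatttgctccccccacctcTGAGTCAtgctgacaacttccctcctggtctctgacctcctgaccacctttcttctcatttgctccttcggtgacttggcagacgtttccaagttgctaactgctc
The motif was found in 5 of 20 matched macrophage promoters (25%), in 4 of the 16 of genes that rose and in 4.12% of all promoters. The core motif of PU.1, GAGGAAGT on either strand, was found in 0 of the 20 and in 2.3% of all.

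Lysosome and antigen-presentation genes rose too. Of 24 tested lysosome genes 15 rose (11.0% of all tested) and 0 fell, with 9 shared. The cathepsins Ctss (1.42 ± 0.24, adjusted p = 0.00574), Ctsz (1.61 ± 0.27, adjusted p = 0.00589) and Ctsd (1.30 ± 0.26, adjusted p = 0.00987), which digest protein, and the lysosomal lipase Lipa (1.25 ± 0.25, adjusted p = 0.00945) were among these. Ctsk, a cathepsin that cleaves collagen and elastin, differed by 2.33 ± 0.42 (adjusted p = 0.00716) and was shared too. The motif CACGTG, which reads the same on both strands, stood in 6 of 19 matched lysosome promoters (31.6%), in 2 of the 11 of genes that rose (18.2%) and in 7.02% of all. The lysosome count ranged from 11, without CHF placebo lung 1 and also without CHF ketotifen lung 2, to 18, and it was 1 without sham placebo lungs 2 and 3 and 0 without the 3 lungs with raised cardiomyocyte genes, at medians of 0.43 and 0.45 against 0.52. The covariate for the beta-actin gap left 5 (median 0.40), and leaving out the 3 lungs of largest gap 0 (0.40). Of 10 tested genes of MHC class II presentation, 7 rose (11.0% of all tested) and 6 were shared. Dimmer probe sets were divided. That of RT1-Db1 rose (2.31), and that of RT1-Ba did not pass the test (-0.51, adjusted p = 0.663). That of RT1-Bb fell (-2.46, adjusted p = 0.0183), with 0.02 under placebo and -4.94 under ketotifen. RT1-DMb (1.50 ± 0.19, adjusted p = 0.00201) and RT1-DMa (1.45 ± 0.27, adjusted p = 0.0079), which load peptide, and Ifi30 (1.22 ± 0.20, adjusted p = 0.00591), a reductase that opens disulfides of antigens, were shared. RT1-DMb read 9.19, 8.19 and 8.63 (sham) and 10.42, 9.63 and 9.56 (CHF) in the placebo arm, and 8.86, 8.93 and 8.82 (sham) and 10.61, 10.85 and 10.57 (CHF) in the ketotifen arm, and each CHF lung was above all sham lungs. Cd74, the invariant chain that alveolar type 2 and B cells also express, did not pass the test (0.11 ± 0.10, adjusted p = 0.436). The class II count was 7 or 8 in every fit without 1 lung, 3 without sham placebo lungs 2 and 3 and 1 without the 3 lungs with raised cardiomyocyte genes, with medians of 0.70 and 0.95 against 0.79. It was 6 with the beta-actin covariate (median 0.74) and 2 without the 3 lungs of largest gap (0.72).

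Genes of the cell cycle rose, 12 of 14 among those measured in both CHF and sham lungs (11.0% of all tested). Of 28 on the array 23 passed the filter, 20 rose and 0 fell, and 13 were shared. The list mean was 4.62 to 4.74 in the sham lungs, near background. Of the 23 genes 9, among them Cdk1, Cdkn3, Ube2c and Pttg1, passed the filter through CHF lungs, which favours a difference. Of the 14 that also reached 4 in at least 3 sham lungs 12 rose and 7 were shared, with a median of 0.93, and the count over all 23 is no support for the increase. Cdkn3, a phosphatase of cell cycle kinases, read 3.07, 3.22 and 2.74 in the sham placebo lungs, 6.47, 4.20 and 3.82 in the CHF placebo lungs, 2.76, 3.20 and 3.16 in the sham ketotifen lungs and 7.36, 6.92 and 6.94 in the CHF ketotifen lungs. Its difference was 2.93 ± 0.38 (adjusted p = 0.00261), with 1.82 under placebo and 4.03 under ketotifen. Within the placebo arm lung 1 of the CHF group was far above lungs 2 and 3, and the same lung stood out for Ube2c, which tags mitotic proteins for destruction (2.13 ± 0.30, adjusted p = 0.00342). Pttg1, the securin that holds sister chromatids together, read with placebo 2.82, 2.43 and 2.53 in sham and 4.96, 3.17 and 3.09 in CHF lungs, and with ketotifen 3.14, 3.17 and 2.82 in sham and 5.29, 6.15 and 5.56 in CHF lungs. Both arms were apart, by a small gap with placebo, and Pttg1 differed by 1.89 ± 0.31 (adjusted p = 0.00528). For genes that read well above background throughout, the differences were smaller: Pcna, the sliding clamp of DNA replication, differed by 0.49 ± 0.09 (adjusted p = 0.00713) and Mcm2, a subunit of the replicative helicase, by 0.95 ± 0.17 (adjusted p = 0.00716), and both were shared. Cdk1 (2.35 ± 0.35, adjusted p = 0.00375) and Mki67 (1.24 ± 0.28, adjusted p = 0.0144) rose on average and overlapped with sham in the placebo arm. The list median was 1.24, with 0.73 under placebo and 2.04 under ketotifen. Without CHF placebo lung 1 the count was 19, without sham placebo lungs 2 and 3 it was 3 with a median of 1.26, and without the 3 lungs with raised cardiomyocyte genes it was 0 with a median of 1.19. Under the beta-actin covariate 13 rose (median 1.13). In the fit without the 3 lungs of largest gap 1 did (1.25).

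The promoters of Cdk1 and Pttg1 are shown because both hold a pair of motifs known from genes of mitosis, the cell cycle homology region TTTGAA and the CCAAT box, which read TTCAAA and ATTGG on the other strand. Cdk1 lies at chr20:19265043-19265342 on the plus strand, with TTTGAA 72 and 16 bases before the start, and Pttg1 at chr10:28406277-28406576 on the minus strand, with TTCAAA 29 bases before it; no motif overlaps another in the sequences shown.
Cdk1: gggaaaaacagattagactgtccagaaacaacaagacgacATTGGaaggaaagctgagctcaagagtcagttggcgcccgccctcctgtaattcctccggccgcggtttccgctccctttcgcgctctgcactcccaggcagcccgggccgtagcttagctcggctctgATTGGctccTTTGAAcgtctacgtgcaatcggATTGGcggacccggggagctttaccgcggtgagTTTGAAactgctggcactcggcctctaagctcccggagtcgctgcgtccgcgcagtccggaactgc
Pttg1: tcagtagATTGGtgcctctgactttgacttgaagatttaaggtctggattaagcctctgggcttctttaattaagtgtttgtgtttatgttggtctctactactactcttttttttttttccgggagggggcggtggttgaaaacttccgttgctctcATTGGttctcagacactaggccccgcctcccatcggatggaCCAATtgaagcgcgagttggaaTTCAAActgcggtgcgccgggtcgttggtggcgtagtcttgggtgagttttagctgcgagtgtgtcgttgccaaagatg
TTTGAA was found in 10 of 19 matched promoters of the tested cell cycle genes (52.6%), in 8 of the 17 of genes that rose (47.1%) and in 17.1% of all promoters. CCAAT was found in 15 of 19 (78.9%), in 13 of the 17 (76.5%) and in 38.0% of all.

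The remaining genes among the 15 leading increases were spread over several functions. Cxcr1, a receptor for neutrophil chemokines, read 5.64, 2.75 and 2.72 (sham) and 7.98, 6.01 and 6.06 (CHF) in the placebo arm, and 2.92, 2.96 and 5.0 (sham) and 7.53, 7.98 and 7.32 (CHF) in the ketotifen arm. Sham placebo lung 1 and sham ketotifen lung 3 were well above the other sham lungs, yet every CHF lung was higher still. Cxcr1 differed by 3.48 ± 0.59, 11.2-fold (adjusted p = 0.00622). It passed the filter through CHF lungs, which favours a difference, so its call is no support for an increase. Ccl9, a chemokine for monocytes and dendritic cells, read 8.05, 6.42 and 7.83 in the sham placebo lungs, 11.22, 9.53 and 9.81 in the CHF placebo lungs, 6.45, 7.81 and 8.28 in the sham ketotifen lungs and 11.70, 12.77 and 10.95 in the CHF ketotifen lungs. Every CHF lung was above every sham lung, and the difference was 3.52 ± 0.46, 11.5-fold (adjusted p = 0.00257). Arg1, the arginase that turns arginine into ornithine, read with placebo 6.57, 4.34 and 6.20 in sham and 9.13, 7.66 and 8.33 in CHF lungs, and with ketotifen 5.97, 6.76 and 7.0 in sham and 9.34, 10.36 and 8.71 in CHF lungs. It rose by 2.78 ± 0.43 (adjusted p = 0.00441), nearly the same with placebo (2.67) and with ketotifen (2.90). Cela1, a serine protease that cleaves elastin, rose by 2.97 ± 0.55 (adjusted p = 0.0075), with CHF lungs between 8.91 and 10.99 and sham lungs between 5.16 and 8.43. Olr1, a receptor for oxidized low density lipoprotein, rose by 3.38 ± 0.53 (adjusted p = 0.00449). Socs3, the feedback inhibitor of cytokine signalling through STAT3, read 3.05, 2.17 and 2.22 (sham) and 4.45, 4.74 and 4.64 (CHF) in the placebo arm, and 3.06, 3.12 and 4.65 (sham) and 6.94, 6.28 and 7.03 (CHF) in the ketotifen arm. It stood near background in most sham lungs and passed the filter through CHF lungs, which favours a difference. Its difference was 2.64 ± 0.29 (adjusted p = 0.00131), and its call, which held in all 27 alternatives, is no support for an increase. Arl11, a small GTPase (2.39 ± 0.36, adjusted p = 0.00423), Cndp1, which splits carnosine (2.17 ± 0.44, adjusted p = 0.0101), and Bcl2a1, an inhibitor of apoptosis (2.10 ± 0.37, adjusted p = 0.00697), showed nearly equal differences in both arms: 2.48 and 2.29, 2.09 and 2.25, and 2.11 and 2.08 with placebo and ketotifen.

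**Figure D3:**
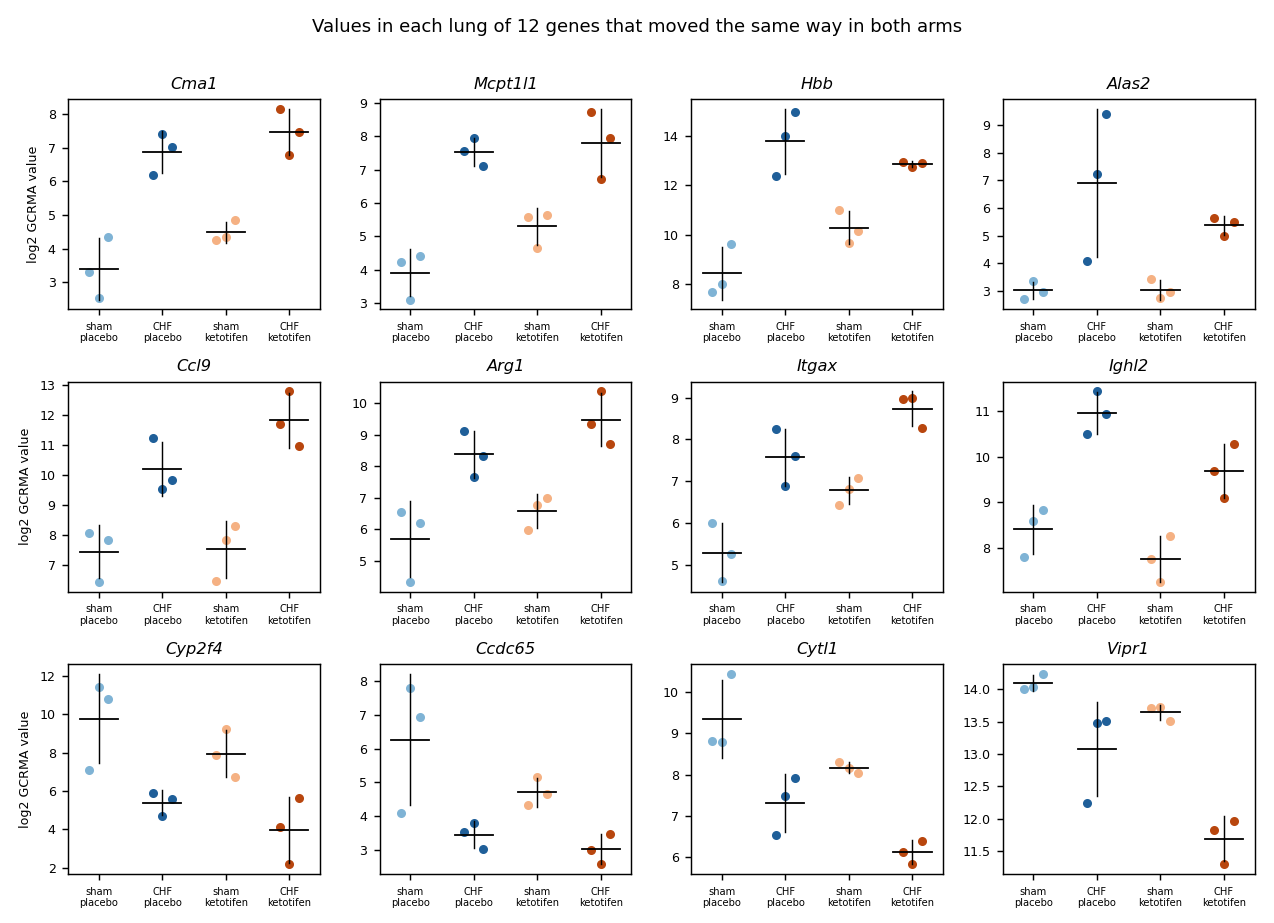
Log2 GCRMA values (vertical axes) of 12 shared genes in the 12 lungs by group (horizontal axes); dots are lungs, horizontal bars group means and vertical bars SD (n = 3). In each panel the CHF lungs of an arm lie wholly above (upper 8 panels) or below (lower 4 panels) the sham lungs of that arm, and the spread is wide for Alas2 in CHF placebo lungs and for Cyp2f4 and Ccdc65 in sham placebo lungs.

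Complement and immunoglobulin genes rose in part. C6, a component of the membrane attack complex, read 3.29, 2.82 and 3.45 in the sham placebo lungs, 8.11, 5.41 and 3.97 in the CHF placebo lungs, 4.56, 4.08 and 3.14 in the sham ketotifen lungs and 9.59, 7.04 and 9.24 in the CHF ketotifen lungs. CHF placebo lung 3 was just above the sham placebo lungs and lung 1 far above, and C6 differed by 3.67 ± 0.66 (adjusted p = 0.00716). Of 18 tested complement genes 8 rose (11.0% of all tested) and 2 fell, a share near the 9.92% of all tested. Of those that rose 4 were shared: C6, C1qa, the serine protease C1s (0.74 ± 0.12, adjusted p = 0.00498) and properdin, Cfp (0.62 ± 0.15, adjusted p = 0.0198). C3, the central component, fell (-0.61 ± 0.16, adjusted p = 0.0238), a call that 6 of the 12 fits without 1 lung lost. C6 passed the filter through CHF lungs, and of the other 17 genes 7 rose. The list counted 1 higher and 0 lower without sham placebo lungs 2 and 3, without the 3 lungs with raised cardiomyocyte genes and without the 3 lungs of largest beta-actin gap, with medians of 0.67, 0.65 and 0.66 against 0.64. With the covariate for that gap 3 rose and 1 fell (median 0.61). Among 10 tested genes of B and plasma cells, 3 rose (11.0% of all tested). Ighl2, an immunoglobulin heavy chain gene, read with placebo 7.81, 8.60 and 8.83 in sham and 10.49, 11.42 and 10.94 in CHF lungs, and with ketotifen 7.76, 7.26 and 8.27 in sham and 9.69, 9.09 and 10.27 in CHF lungs, and each CHF lung was above each sham lung (2.23 ± 0.27, adjusted p = 0.00187). Jchain, which joins immunoglobulin A and M chains, differed by 1.54 ± 0.34 (adjusted p = 0.0132) and was shared, whereas Fcrla, a B cell protein related to Fc receptors, was higher in CHF with placebo (2.93) and differed by -0.77 with ketotifen, which did not pass the test (adjusted p = 0.219). Its call on average was lost without sham placebo lung 2, sham ketotifen lung 3 or CHF ketotifen lung 2, and the list counted 2 without sham placebo lungs 2 and 3 and 0 without the 3 lungs with raised cardiomyocyte genes, with medians of 0.50 and 0.54 against 0.24. It counted 2 with the beta-actin covariate and 2 without the 3 lungs of largest gap (medians 0.69 and 0.84).

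Genes of the conducting airway fell. Cyp2f4, a P450 enzyme of club cells, read 7.11, 11.43 and 10.79 (sham) and 5.91, 4.69 and 5.59 (CHF) in the placebo arm, and 7.89, 9.24 and 6.75 (sham) and 4.13, 2.17 and 5.62 (CHF) in the ketotifen arm. All CHF lungs lay below all sham lungs, and it fell by 4.18 ± 0.80 on the log2 scale, 18.2-fold (adjusted p = 0.0083), the largest decrease among shared genes. The sham values were spread over more than 4 units, with sham placebo lungs 2 and 3 highest, and the difference was -2.85 without these and -3.33 without the 3 lungs with raised cardiomyocyte genes. Of 12 tested club cell genes 6 fell (9.92% of all tested probe sets fell), and Cyp2f4, Aldh1a1 and Scgb1a1 were shared. The 1 gene that rose, Cyp1a1, was higher in the ketotifen arm only. Aldh1a1, which oxidizes retinaldehyde, read 11.82, 13.53 and 12.92 in the sham placebo lungs, 11.01, 11.63 and 11.54 in the CHF placebo lungs, 12.18, 12.16 and 11.73 in the sham ketotifen lungs and 10.35, 10.14 and 10.26 in the CHF ketotifen lungs. CHF and sham lungs did not overlap in either arm, and Aldh1a1 differed by -1.57 ± 0.25 (adjusted p = 0.00458). Scgb1a1, the secretory protein that marks club cells, was near the top of the array's range, from 15.55 to 16.23; it differed by -0.26 ± 0.08 (adjusted p = 0.0354), a call lost in 10 of 12 fits without 1 lung. Cyp2a3 had a larger difference (-4.69 ± 0.87, adjusted p = 0.00761) but overlapped in the placebo arm. Outside the list, the leading decreases held the P450 enzyme Cyp2s1 (-2.41 ± 0.57, adjusted p = 0.0173) and Lypd2 (-2.36 ± 0.57, adjusted p = 0.0182), a member of the Ly6 family. Lypd2 passed the filter through sham lungs, which favours a difference. The club cell list counted 1 lower gene without sham placebo lungs 2 and 3 and 0 without the 3 lungs with raised cardiomyocyte genes, with medians of -0.32 and -0.38 against -1.18. The beta-actin covariate left 2 lower (median -0.27). Leaving out the 3 lungs of largest gap left 1 (-0.28). Cyp2a3 and 2 others passed the filter through sham lungs and Cyp1a1 through CHF lungs, and of the remaining 8 genes 5 fell.

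Cilia genes fell as well, with a large part of the difference resting on sham placebo lungs 2 and 3. Ccdc65, part of the complex that regulates dynein in motile cilia, read with placebo 4.07, 7.79 and 6.95 in sham and 3.52, 3.79 and 3.00 in CHF lungs, and with ketotifen 4.31, 5.17 and 4.64 in sham and 2.98, 2.57 and 3.46 in CHF lungs. Ccdc65 passed the filter through sham lungs, which favours a difference, so its call is no support for a decrease. Sham placebo lungs 2 and 3 were far above lung 1, whose value was close to the CHF placebo lungs. Ccdc65 differed by -2.27 ± 0.52 (adjusted p = 0.0159), but by -1.17 without sham placebo lungs 2 and 3. Cfap144 (-1.83 ± 0.42, adjusted p = 0.0162), named for cilia and flagella, and Rabl2 (-1.67 ± 0.36, adjusted p = 0.0122), a small GTPase of cilia, showed the same order of the sham placebo lungs. Cdkl4, a kinase of a family known from cilia (-1.60 ± 0.43, adjusted p = 0.0254), and Six4, a homeobox gene (-1.78 ± 0.45, adjusted p = 0.0214), did as well. The call of Cdkl4 was lost without sham placebo lung 3, CHF placebo lung 1, sham ketotifen lung 2 or CHF ketotifen lung 1, and that of Six4 without sham placebo lung 3. Without sham placebo lungs 2 and 3 the differences were -0.99 for Cfap144, -1.04 for Rabl2, -0.91 for Cdkl4 and -0.84 for Six4. Of 17 tested ciliated cell genes 8 fell (9.92% of all tested) and 0 rose (11.0% of all tested). Only Tppp3 (-1.18 ± 0.24, adjusted p = 0.0095) and Cep162 (-0.86 ± 0.13, adjusted p = 0.00448) were shared. Of all tested probe sets 3.94% were shared lower. The axonemal dynein chain gene Dnai1 (-2.17 ± 0.67, adjusted p = 0.0411) kept its call in 1 of 12 fits without 1 lung. The count of the list was 15 without sham placebo lung 1, 7 without CHF placebo lung 1 and 2 or 3 without any other single lung. Its median was -1.45 with all lungs, -0.42 without sham placebo lungs 2 and 3, and -1.33 without the 3 lungs with raised cardiomyocyte genes, with 1 and 0 called in these last 2 fits. The beta-actin covariate left 1 (median -0.86), and leaving out the 3 lungs of largest gap 0 (-0.41). Dnai1 and 2 others of the list passed the filter through sham lungs, and of the remaining 14 genes 7 fell.

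Endothelial genes fell more often than they rose. Of 27 tested endothelial genes 11 fell (9.92% of all tested) and 2 rose (11.0%), and Vwf, Tie1 and Acvrl1 were shared. Vwf, von Willebrand factor, read 12.42, 11.60 and 11.79 (sham) and 9.83, 11.28 and 11.37 (CHF) in the placebo arm, and 11.36, 11.42 and 11.38 (sham) and 9.96, 9.48 and 10.08 (CHF) in the ketotifen arm. The CHF placebo lungs 2 and 3 lay just under the sham placebo lungs and lung 1 far under, and Vwf differed by -1.33 ± 0.26 (adjusted p = 0.00861). Tie1, a receptor-like kinase of endothelium, differed by -0.77 ± 0.16 (adjusted p = 0.00998) and Acvrl1, the BMP family receptor ALK1, by -0.73 ± 0.17 (adjusted p = 0.0154). Kdr, the main VEGF receptor (-1.10 ± 0.21, adjusted p = 0.0087), and Hpgd, which degrades prostaglandins (-2.09 ± 0.33, adjusted p = 0.00458), fell on average and overlapped in the placebo arm. The list median was -0.11 with placebo and -0.87 with ketotifen. Its lower count ranged from 7, without sham placebo lung 3, to 12; it was 2 without sham placebo lungs 2 and 3 and 0 without the 3 lungs with raised cardiomyocyte genes, at medians of -0.44 and -0.42 against -0.52. Under the beta-actin covariate 4 fell (median -0.47). In the fit without the 3 lungs of largest gap 0 did (-0.45). Smooth muscle and pericytes formed the other list of the vessel wall. Of its 19 tested genes 1 rose (11.0% of all tested) and 1 fell (9.92%), with a median of 0.05.

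Among receptors for vasoactive signals, Vipr1, the receptor for vasoactive intestinal peptide, read 14.01, 14.04 and 14.24 in the sham placebo lungs, 12.25, 13.47 and 13.51 in the CHF placebo lungs, 13.70, 13.72 and 13.50 in the sham ketotifen lungs and 11.82, 11.29 and 11.96 in the CHF ketotifen lungs. CHF lungs were below the sham lungs of their arm, with lung 1 the lowest in the CHF placebo group, and Vipr1 differed by -1.48 ± 0.21, 2.8-fold (adjusted p = 0.00342). Npr1, the receptor for atrial and B-type natriuretic peptides, fell by 0.67 ± 0.13 on the log2 scale (adjusted p = 0.0079) and was shared. Ramp3, which directs the calcitonin receptor-like receptor towards adrenomedullin, read with placebo 5.75, 4.96 and 5.17 in sham and 8.05, 6.57 and 6.20 in CHF lungs, and with ketotifen 6.19, 4.70 and 5.95 in sham and 7.01, 6.67 and 6.67 in CHF lungs and rose without overlap (1.41 ± 0.34, adjusted p = 0.0191). The serotonin receptor gene Htr2c (1.73 ± 0.28, adjusted p = 0.00505) rose, and the serotonin transporter Slc6a4 (-0.94 ± 0.28, adjusted p = 0.0361) fell, neither of them shared, and Slc6a4 kept its call in 3 of 12 fits without 1 lung. In all, 3 of the 22 tested genes of natriuretic peptide, endothelin, nitric oxide and related signalling rose (11.0% of all tested) and 5 fell (9.92%). The count of decreases was 2 or 3 in the fits that left out either of sham placebo lungs 2 and 3, CHF placebo lung 1, any single sham ketotifen lung but lung 2, or any single CHF ketotifen lung. The list counted 0 higher and 1 lower without sham placebo lungs 2 and 3 (median -0.22, as with all lungs). It counted 0 higher and 0 lower without the 3 lungs with raised cardiomyocyte genes (-0.23) and without the 3 of largest beta-actin gap (-0.19). With the covariate for that gap 2 rose and 2 fell (median -0.25). Htr2c was among 4 genes of the list that passed the filter through 1 surgery group, and of the other 18 genes 2 rose and 5 fell.

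Matrix genes rose about as often as any probe set. Of 34 tested genes of the extracellular matrix 4 rose, a share near the 11.0% of all tested, and 1 fell (9.92% of all tested), with 0 shared: Eln, elastin (1.62 ± 0.43, adjusted p = 0.0242), the cross-linking enzyme Loxl2 (1.25 ± 0.31, adjusted p = 0.0194), Col15a1 (1.61 ± 0.35, adjusted p = 0.0125) and fibronectin, Fn1 (0.77 ± 0.19, adjusted p = 0.0197), rose and Fbln2 (-1.56 ± 0.36, adjusted p = 0.0164) fell. A dimmer probe set of Eln did not pass the test (difference -0.16), and the call of Eln was lost without CHF placebo lung 1. Without CHF placebo lung 3, 10 genes of the list rose, and without CHF ketotifen lung 2, 7. The list counted 1 higher without sham placebo lungs 2 and 3 and 0 without the 3 lungs with raised cardiomyocyte genes, with the beta-actin covariate or without the 3 lungs of largest gap. The medians were 0.22, 0.29, 0.15 and 0.22 against 0.32. Col1a1, the main collagen, differed by 0.20 ± 0.22 (adjusted p = 0.535). Of 17 proteases and inhibitors 7 rose (11.0% of all tested) and 0 fell, with 2 shared. Adamts4 passed the filter through CHF lungs, and of the other 16 genes 6 rose. Timp1, an inhibitor of metalloproteinases, read 9.21, 8.51 and 8.22 (sham) and 10.22, 9.45 and 10.32 (CHF) in the placebo arm, and 8.59, 9.01 and 8.95 (sham) and 11.80, 11.42 and 11.83 (CHF) in the ketotifen arm. CHF lungs were above sham lungs in both arms (2.09 ± 0.20, adjusted p = 0.00059), and the call held in all 27 alternatives. Mmp14, a membrane metalloproteinase, differed by 1.01 ± 0.17 (adjusted p = 0.00595), while its dimmer probe set did not pass the test (difference 0.31). Without CHF placebo lung 1, and also without CHF ketotifen lung 1, 4 of the 17 rose. The count was 5 without sham placebo lungs 2 and 3 and 2 without the 3 lungs with raised cardiomyocyte genes. It was 5 with the beta-actin covariate and 4 without the 3 lungs of largest gap. The 4 fits had medians of 0.82, 1.01, 0.76 and 0.72 against 1.01.

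Of 31 genes of TGF-beta and BMP signalling 5 rose (11.0% of all tested) and 7 fell (9.92%). Shared were 1 of the increases, Tgfb1 (0.88 ± 0.18, adjusted p = 0.0109), and 2 of the decreases, Acvrl1 and Smad5 (-0.57 ± 0.14, adjusted p = 0.0203), a messenger of BMP receptors. Over all tested probe sets 5.42% were shared higher and 3.94% shared lower. Tgfb1, the cytokine itself, read 6.83, 5.71 and 6.46 in the sham placebo lungs, 7.44, 6.87 and 7.06 in the CHF placebo lungs, 6.92, 6.71 and 7.05 in the sham ketotifen lungs and 7.98, 7.91 and 7.72 in the CHF ketotifen lungs, and in each arm the CHF lungs were above the sham lungs. Bmpr2, the BMP type II receptor, differed by -0.85 ± 0.27 (adjusted p = 0.0476), overlapped in the placebo arm and kept its call in 1 of 12 fits without 1 lung. The count of decreases was 2 without CHF placebo lung 1, 3 without sham placebo lung 3 or sham ketotifen lung 2 and 4 without sham ketotifen lung 1, CHF ketotifen lung 2 or CHF ketotifen lung 3. No gene of the list was called without sham placebo lungs 2 and 3, without the 3 lungs with raised cardiomyocyte genes or without the 3 of largest beta-actin gap. The medians in these fits were -0.27, -0.27 and -0.18 against -0.17. With the covariate for that gap 1 rose and 0 fell (-0.16). Igf1, a growth factor that macrophages and fibroblasts secrete, read with placebo 9.68, 8.56 and 9.28 in sham and 11.46, 10.28 and 10.64 in CHF lungs, and with ketotifen 10.14, 10.13 and 9.88 in sham and 11.64, 11.56 and 11.37 in CHF lungs. CHF lungs were above sham lungs in both arms, Igf1 differed by 1.55 ± 0.22 (adjusted p = 0.00342), and its 2 dimmer probe sets, called as well, differed by 0.97 and 1.34.

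Several leading decreases belonged to no list. Cytl1, a small secreted protein, read 8.81, 8.79 and 10.44 (sham) and 6.54, 7.49 and 7.92 (CHF) in the placebo arm, and 8.30, 8.17 and 8.04 (sham) and 6.13, 5.83 and 6.41 (CHF) in the ketotifen arm. All CHF lungs were below all sham lungs, and Cytl1 differed by -2.04 ± 0.31, with -2.03 in the placebo arm and -2.05 in the ketotifen arm (adjusted p = 0.00423). PCOLCE2, an enhancer of procollagen processing, read 8.43, 8.67 and 8.48 in the sham placebo lungs, 5.21, 8.22 and 8.09 in the CHF placebo lungs, 8.35, 8.51 and 8.02 in the sham ketotifen lungs and 5.31, 4.66 and 5.31 in the CHF ketotifen lungs. CHF placebo lungs 2 and 3 were only slightly below the sham placebo lungs, and PCOLCE2 differed by -2.28 ± 0.44 (adjusted p = 0.00876), -1.35 with placebo and -3.20 with ketotifen. Klhdc7a (-1.81 ± 0.31, adjusted p = 0.00617) and the Golgi calcium pump Atp2c2 (-1.46 ± 0.30, adjusted p = 0.00998) held their calls in all 12 fits without 1 lung. Atp2c2 passed the filter through sham lungs, which favours a difference, so its call is no support for a decrease. The zinc finger gene Plagl1 (-1.54 ± 0.42, adjusted p = 0.0266) was no longer called in fits that left out sham placebo lung 2 or 3, sham ketotifen lung 1 or 3, or CHF ketotifen lung 2, and Fam107a (-1.69 ± 0.44, adjusted p = 0.0228) lost it without sham placebo lung 3.

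**Figure D4:**
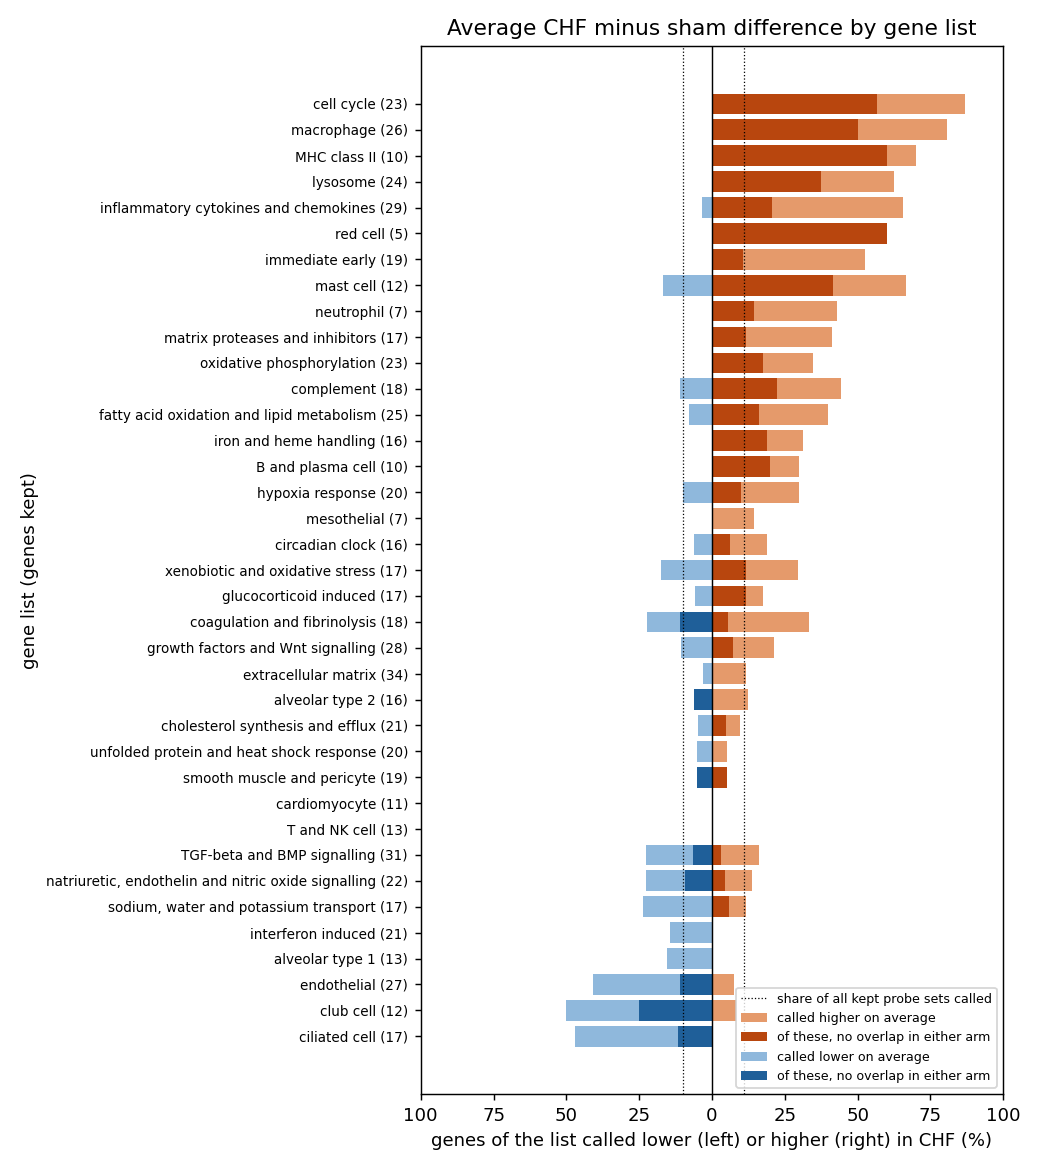
Share of the tested genes of each list, in percent, called higher (right) or lower (left) in CHF on average; darker bars are shared genes, the number of genes tested stands after each list name, lists with fewer than 5 are left out, and dotted lines mark the 11.0% and 9.92% of all tested probe sets called. The cell cycle and macrophage lists reach farthest to the right with 20 of 23 and 21 of 26 genes, of which 9 and 2 passed the filter through CHF lungs, and the club cell and ciliated cell lists farthest to the left with 6 of 12 and 8 of 17.

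A call on average did not always come from both arms. Of 29 tested genes of inflammatory cytokines and chemokines 19 rose (11.0% of all tested) and 1 fell, but 6 were shared. Cxcl2 was among these 6 only by the order of background values in the placebo arm. For 7 genes the difference between the arms was called, and the list median was 0.28 with placebo and 2.43 with ketotifen. Of these 29 genes 11, among them Ccl7, Cxcl2 and Il6, passed the filter through CHF lungs; of the 17 measured in both CHF and sham lungs 9 rose and 1 fell. Ccl7, a chemokine for monocytes, read with placebo 2.79, 2.79 and 2.75 in sham and 3.24, 2.81 and 2.74 in CHF lungs, and with ketotifen 2.82, 2.83 and 2.77 in sham and 8.91, 8.95 and 8.33 in CHF lungs. Its average of 3.04 ± 0.14 (adjusted p = 5.5e-06) joined 0.15 with placebo and 5.92 with ketotifen, which differed by 5.77 (adjusted p = 9.48e-06). Il6, the interleukin that signals through STAT3, was at background in all lungs but CHF placebo lung 1 and the CHF ketotifen lungs, with a difference of 1.07 with placebo and 8.48 with ketotifen. Ccl2, also a chemokine for monocytes, was shared in the sense used here and yet unequal: it differed by 1.70 with placebo and 6.53 with ketotifen (adjusted p for the difference between the arms = 0.000901). Without sham placebo lungs 2 and 3, 10 genes rose, and without the 3 lungs with raised cardiomyocyte genes 6, with medians of 1.32 and 1.46 against 1.44. Under the beta-actin covariate 16 rose (median 1.43). In the fit without the 3 lungs of largest gap 8 did (1.17). Of 19 tested immediate early genes 10 rose (11.0% of all tested). Of these 2 were shared, and 4 genes had a called difference between the arms. Fosb and Nr4a3 passed the filter through CHF lungs, and of the other 17 genes 8 rose. Their count was 7 without sham placebo lungs 2 and 3, 2 without the 3 lungs with raised cardiomyocyte genes, 11 with the beta-actin covariate and 5 without the 3 lungs of largest gap. The medians were 0.89, 0.92, 1.10 and 1.01 against 0.83. Il18, an interleukin of macrophages, had similar differences in both arms (1.82 and 1.63) with overlap in the placebo arm, and was called on average (1.73 ± 0.35, adjusted p = 0.00995). Thus a large average could stand for an increase in the ketotifen arm alone, as for Ccl7, or for nearly equal arms, as for Arg1.

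The 30 leading genes were compared with and without the lungs that stood apart. All 30 kept the sign of their difference in every alternative in which they were measured. As shared genes have no overlap in either arm, leaving out lungs could not change that sign. The kept sign is therefore no support for these genes. The alternatives numbered 26 for Alas2, Ccdc65, Six4, Klhdc7a and Atp2c2 and 27 for the others. Cma1, Hbb and Socs3 kept their call in all 27 alternatives, though Socs3 had passed the filter through CHF lungs. Without sham placebo lungs 2 and 3 the differences of Cma1 and Hbb were 3.27 and 4.35, as large as with all lungs, whereas those of the cilia genes Ccdc65 and Cfap144 and of Cyp2s1 were smaller, at -1.17, -0.99 and -1.28 against -2.27, -1.83 and -2.41.

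**Figure D5:**
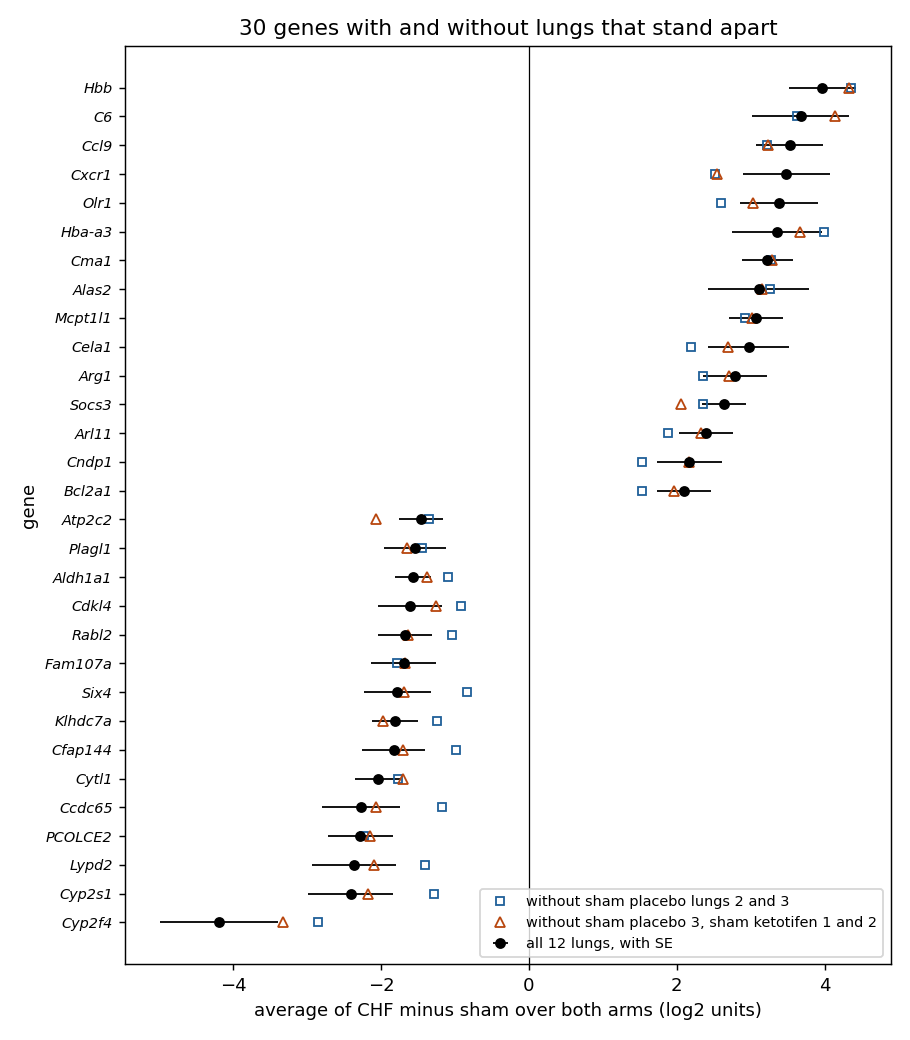
Average difference of CHF minus sham over both arms (horizontal axis, log2 units) for the 30 leading shared genes (vertical axis); black dots with bars are all 12 lungs with SE, blue squares leave out sham placebo lungs 2 and 3, and orange triangles leave out sham placebo lung 3 and sham ketotifen lungs 1 and 2. Squares lie nearer to 0 than the dots for the airway genes at the bottom, such as Cyp2f4 at -2.85 against -4.18, and at or beyond them for Hbb, Hba-a3 and Alas2.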

How the data were processed

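Each of 12 whole lungs gave RNA for 1 Affymetrix array (Rat Genome 230 2.0). Per the submitters' processing notes, the log2 values the authors deposited come from GCRMA (R version 2.5.0). As a method GCRMA corrects background by probe sequence and quantile-normalizes arrays, which removes an overall shift of signal. From the deposited log2 values, 57 control probe sets were left out and 16536 probe sets of at least 4 in at least 3 arrays were kept. A model with 4 group means was fitted with limma 3.58.1 in R 4.3.3 (lmFit, contrasts, eBayes with an intensity trend) and gave the average surgery difference, that of each arm and the difference between the arms. P-values were two-sided and adjusted by Benjamini-Hochberg over all kept probe sets, with a threshold of 0.05. The code was tested on simulated data.

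A gene was read from its brightest kept probe set with 1 symbol; of 31042 probe sets 20826 had 1 symbol in the platform annotation, 436 several and 9780 none. Genes named by rule were the 15 higher and 15 lower shared genes with the largest difference in their weaker arm, up to 4 genes and every called gene of each list, all mast cell genes, 4 genes with a called difference between the arms, 4 with opposite signs and the lung markers Sftpc, Ager and Scgb1a1. The members and lists were chosen with earlier results of these data known. Promoters came from RefSeq (GRCr8). Alternatives were other filters and normalizations, array weights, covariates and fits without single lungs or groups of lungs; the last were chosen after seeing the data. The labels give no batch, and array batches were not analysed here.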

Additional observations from a re-analysis of the deposited data

Results flagged for a closer look

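The CHF minus sham difference itself differed between the arms for 61 of all tested probe sets (limma, adjusted p under 0.05). Among the single genes that were followed through the alternative fits this held for 13, and only these are listed here. Values are given as ketotifen arm minus placebo arm in log2 units. The average of these 13 genes over both arms stands for unequal parts. The monocyte and neutrophil chemokine genes Ccl7 (5.77), Cxcl2 (5.55), Ccl2 (4.83) and Cxcl1 (4.36) had the larger difference in the ketotifen arm. The same held for Il6 (7.41), for the immediate early genes Nr4a3 (5.52) and Fosb (4.27), for Tfpi2 (5.70), a protease inhibitor, and for Depdc1 (2.55), a gene of dividing cells. Cyp1a1 (4.17), Ptgs2 (4.09), the inducible prostaglandin synthase, and Star (3.13), which carries cholesterol into mitochondria, were higher in CHF in the ketotifen arm and did not pass the test in the placebo arm (differences of -0.16, -0.24 and -0.00089, adjusted p = 0.880, 0.811 and 0.999). Fcrla (-3.70), a B cell gene, was higher in CHF in the placebo arm, and its difference of -0.77 in the ketotifen arm did not pass the test (adjusted p = 0.219). Of these, Ccl2 and Cxcl2 are among the shared genes by the rule used here, although their arms are unequal. For Cxcl2 the placebo arm lay at background, with 2.21 to 2.25 in sham and 2.26 to 2.68 in CHF lungs. Its difference of 0.18 there did not pass the test (limma, adjusted p = 0.679), so only the order of background values made it shared.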

How the results depend on the processing

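The sign of the probe sets called on average was kept in 27 alternatives, while counts of calls moved. This held for all 3467 but under the stricter filter, which measured 3030 of them. Other filters, no intensity trend, the replicate block, additive surgery and drug terms and surgery alone leave each difference unchanged, so its sign could not change. Fits without some lungs reused lungs that made the calls, so the kept sign is no separate support. With no filter 2311 were called (974 lower), 9 in the placebo arm, 1156 in the ketotifen arm and 36 for the difference between the arms. Array weights, whose fit did not converge and gave sham placebo lung 3 a weight of 35.1 against 0.305 to 3.77 for the others, called 7849 (3815 higher, 4034 lower), 8291 with placebo, 4275 with ketotifen and 3169 for the difference. Surgery alone called 1776 (1092 higher, 684 lower; 394 shared lower). With the beta-actin 3' minus 5' gap as a covariate 1385 were called (798 higher, 587 lower), 454 shared higher and 276 shared lower, and 5 with placebo. Averaging CHF ketotifen lungs 1 and 3, the closest pair of arrays, gave 6 with placebo, 953 with ketotifen and 28 for the difference.

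Without sham placebo lungs 2 and 3 the counts were 297 on average (208 higher, 89 lower), 176 and 81 shared, 0 with placebo (810 at an unadjusted p under 0.05, limma) and 11 for the difference. Without sham ketotifen lungs 1 and 2 they were 708 (370 higher, 338 lower), 279 and 266 shared, 1 with placebo, 76 with ketotifen and 11 for the difference. Without the 3 lungs of largest beta-actin gap they were 197 (140 higher, 57 lower), 120 and 56 shared, 0 with placebo (925 unadjusted), 984 with ketotifen and 2 for the difference. Without the 3 lungs with raised cardiomyocyte genes they were 60 (48 higher, 12 lower), 34 and 8 shared, 0 with placebo (2042 unadjusted), 43 with ketotifen and 3 for the difference. Fewer samples account for part of each drop by construction; the rest was not tested. Asking for a call in each arm separately left 11 of 1548 shared probe sets.

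Leaving out 1 lung at a time gave 2021 to 4299 calls (1165 to 2228 higher, 856 to 2071 lower), 731 to 1457 shared higher and 493 to 1094 shared lower, 0 (without sham placebo lung 2; 1982 unadjusted) to 1496 (without sham placebo lung 1) with placebo, 766 to 2773 with ketotifen and 21 to 303 for the difference, both of these upper values in the fit lacking CHF placebo lung 1. Replicate numbers did not pair the lungs: deviations of same-numbered lungs correlated from -0.347 to 0.263, with 5 of 18 pairs over 0.1, and the replicate block called 37 for the difference between the arms against 61 without it and changed no other count by over 1.5 times. The number of arrays limits precision, and values under about 4 carry no reliable size.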

Other observations

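Genes of lipid handling rose in CHF in part. Of 25 tested genes 10 rose (11.0% of all tested probe sets) and 2 fell (9.92%) by limma, with 4 shared. The count of increases was 4 without sham placebo lungs 2 and 3 and 1 without the 3 lungs with raised cardiomyocyte genes. It was 6 with the beta-actin gap as a covariate and 3 without the 3 lungs of largest gap. The 4 fits had medians of 0.19, 0.34, 0.23 and 0.23 against 0.26. Cd36, a receptor for fatty acids and oxidized lipoproteins, differed by 1.02 ± 0.13 (SE, n = 6 against 6; adjusted p = 0.00201), with 0.93 in the placebo arm and 1.11 in the ketotifen arm. Plin2, which coats lipid droplets, differed by 0.70 ± 0.11 (adjusted p = 0.00497) and was shared as well. Pparg, a fatty acid receptor that drives the alveolar macrophage program, differed by 2.00 ± 0.38 (adjusted p = 0.0083) with overlap in the placebo arm, and Ppargc1a, which promotes mitochondrial biogenesis, by -1.41 ± 0.28 (adjusted p = 0.00893). Of 23 tested genes of oxidative phosphorylation 8 rose (11.0% of all tested) and 0 fell, with 4 shared. The amounts were small: Cox5b, a subunit of cytochrome oxidase, differed by 0.62 ± 0.13 (adjusted p = 0.0101) and Uqcrfs1, the Rieske protein, by 0.50 ± 0.10 (adjusted p = 0.00876). The latter count was 4 when either of sham placebo lungs 2 and 3 was left out, or CHF placebo lung 1, sham ketotifen lung 1 or 3 or CHF ketotifen lung 2, and 5 without CHF ketotifen lung 1. It was 3 with the beta-actin covariate (median 0.30) and 0 without sham placebo lungs 2 and 3, without the 3 lungs with raised cardiomyocyte genes and without the 3 of largest gap, with medians of 0.24, 0.23 and 0.27 against 0.26.

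Of 17 tested genes known to be induced by glucocorticoids 3 rose (11.0% of all tested probe sets) and 1 fell (9.92%). Mt2A, a metallothionein (2.40 ± 0.29, adjusted p = 0.00194), and Sgk1, a kinase that activates sodium transport (1.39 ± 0.20, adjusted p = 0.00355), were shared. The list median was near 0, and 3 rose without sham placebo lungs 2 and 3 and 1 without the 3 lungs with raised cardiomyocyte genes. With the beta-actin covariate 2 rose, and without the 3 lungs of largest gap 2. Of 18 tested coagulation genes 6 rose (11.0% of all tested) and 4 fell (9.92%). Of the 15 measured in both CHF and sham lungs 5 rose and 4 fell. Among them on average Fgg, the gamma chain of fibrinogen, rose (1.53 ± 0.31, adjusted p = 0.0095) and factor VIII, F8, fell (-0.77 ± 0.19, adjusted p = 0.0183). Dimmer probe sets of F8 did not pass the test (-0.88 and -0.22, adjusted p = 0.0857 and 0.261). Nkx2-1, the transcription factor of the lung epithelium, fell (-0.58 ± 0.14, adjusted p = 0.0173), and was the only shared gene among 16 tested alveolar type 2 genes. Of 13 tested T and NK cell genes limma called 0 on average (1 at an unadjusted p under 0.05) and 0 for the difference between the arms (3 at an unadjusted p under 0.05). Their median difference was 0.80 in the placebo arm and -1.09 in the ketotifen arm.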
